A study of Orbicella faveolata with 18 samples.

Results

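The embryos described here belonged to the reef-building coral Montastraea faveolata and developed at 27.5°C, the lowest of the temperatures in the series. Gene expression was measured in them at 12 and at 48 hours, and the comparison asked which transcripts changed in level between these times. The members were the clones of a spotted cDNA array that were measured at 12 hours and at 48 hours, each on 2 or more of 3 arrays. That was the case for 1101 of 1218 clones, and 6 of the 18 arrays of the series were used. The other 117 clones had a value on only 1 of the 12-hour arrays and were not tested. The remaining arrays held embryos of the same spawning at 29°C and 31.5°C, again with 3 arrays at each time. Gametes of several colonies were mixed, embryos were fertilised in warmer water before they were moved to 27.5°C, and no embryo carried algal symbionts. Embryos of several containers were combined into 1 sample per temperature and time. Each group was thus 1 RNA isolation, which was hybridised 3 times. The spread given below is the spread between arrays of one RNA and not between batches of embryos, so no p-value is given for the difference between the times.

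A coral egg shed during spawning carries RNA and protein laid down by the mother. The fertilised egg first divides by rapid cleavage, which draws on these stores, and the embryo later starts to transcribe its own genome, gastrulates and becomes a swimming larva covered with cilia, the planula. In animals, rapid cleavage needs a supply of histones, replication proteins and mitotic proteins. Growth of the larva needs ribosomes, respiration and secretion. Corals also express many genes for protection against reactive oxygen species.

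On each array the sample was labelled with Cy5 and a pool of RNA from the experiment was labelled with Cy3. The value of a clone is the log2 ratio of Cy5 to Cy3 after normalisation within the array, so a value of 0 is the level of the pool. The dyes were not swapped, and a dye bias of a single clone cancels in the difference between the times. Arrays of the same time correlated across clones at 0.68 to 0.82 for 12 hours and 0.89 to 0.91 for 48 hours. Arrays of different times correlated at -0.31 to -0.54, each over at least 976 clones. The direction of the ratio follows the dyes stated in the methods. Since both RNAs were part of the pool, values on opposite sides of 0 are partly built into the measurement. The 12-hour arrays were the noisier ones, with a technical standard deviation (SD, root of the mean variance over clones) of 0.353 against 0.115 at 48 hours. The 12-hour arrays lacked a value for 241, 79 and 84 clones and the 48-hour arrays for 0, 2 and 1. The intensity files of replicates 1 and 2 of the 12-hour group also differed from those of all other arrays in a header entry. This was taken here, as an assumption, as another image-analysis session. No other array of the series belonged to it. With this session as a block, the 12-hour mean of a clone therefore rests on replicate 3 alone. Differences given below for that setting are comparisons with 1 array at 12 hours, and not an adjustment tested on other arrays.

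A clone was called higher or lower at 48 hours where the 95% confidence intervals of its means at both times did not overlap. The intervals used one SD per clone, estimated over the arrays of all 6 conditions, with up to 12 degrees of freedom. The limit of a clone, which is the smallest difference that keeps the intervals apart, had a median of 0.51 on the log2 scale. By this rule 500 of 1101 clones (45.4%) were called, 271 higher (24.6%) and 229 lower (20.8%) at 48 hours. On spot intensities centred on each array's median, 447 of 1772 unnamed spots were higher and 241 lower, and on the same spots normalised by print-tip loess 417 were higher and 410 lower. The called differences had a median size of 0.89 on the log2 scale. Among the called clones, 117 were higher and 84 lower by more than 2-fold, and 14 were higher and 17 lower by more than 4-fold. The median difference over all tested clones was 0.00. Of the 931 clones with a value on all 6 arrays, 612 (65.7%) had 48-hour values that lay all above or all below the 12-hour values. These were 317 above and 295 below, and 459 of them were also called.

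**Figure D1:**
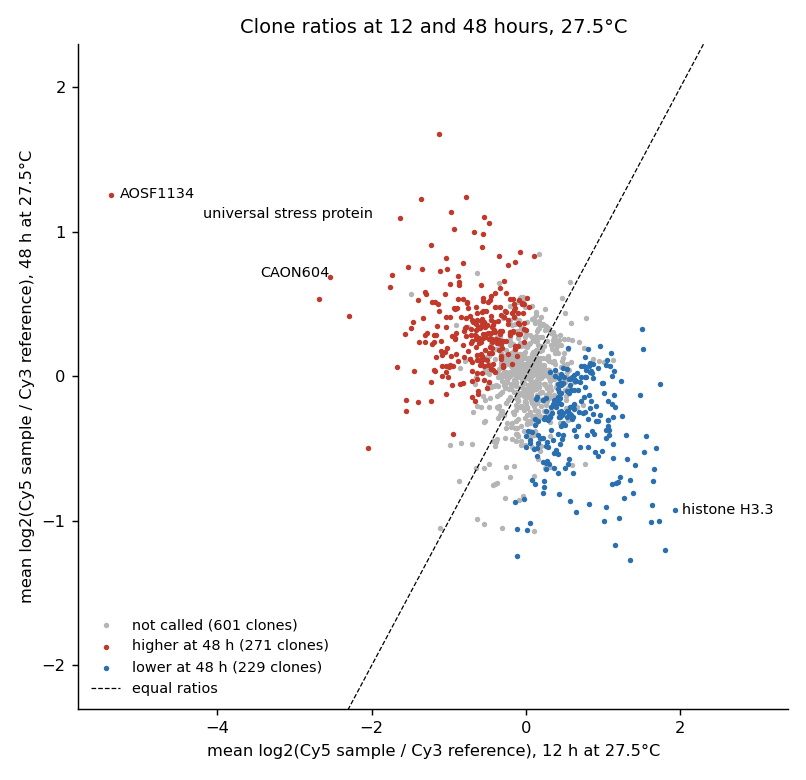
Each point is 1 of the 1101 tested clones, with its mean log2 ratio to the pool at 12 hours on the horizontal axis and at 48 hours on the vertical axis (unequal axis ranges). The 271 clones that were higher at 48 hours lie above the dashed line of equal ratios and the 229 lower clones lie below it. Clone AOSF1134 stands apart at a 12-hour ratio of -5.38.

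Gene names come from the annotation that the study published with its clones. It covers clones that the study had picked because they differed between temperatures on these same arrays, so annotated clones are not a neutral sample of the array. Of the 257 annotated clones tested, 187 (72.8%) were called, 103 higher (40.1%) and 84 lower (32.7%). List counts are therefore to be read against these shares and the shares over all clones given above, which not all list descriptions repeat. None of the list counts is independent evidence of a direction. In whole embryos, fewer cells of a type and less RNA per cell cannot be told apart.

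Cytosolic ribosomal proteins, the structural proteins of the ribosome, were almost all called in one direction. Of 41 such clones, 40 could be tested, 37 were higher at 48 hours, none was lower and 3 were not called. The median difference was 1.00 on the log2 scale, against 0.12 over all annotated clones. The median ratio of the 40 clones was -0.89, -0.60 and -0.61 on the 12-hour arrays and 0.32, 0.31 and 0.45 on the 48-hour arrays. All 12-hour arrays thus lay below the pool and all 48-hour arrays above it. Large-subunit proteins had a median difference of 1.05 (22 of 23 clones higher) and small-subunit proteins one of 0.95 (15 of 17 clones higher).

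The 60S ribosomal protein L18 (AOSC1063) had the largest difference in the list. Its ratios were -1.57, -1.20 and -1.13 at 12 hours and 0.52, 0.45 and 0.75 at 48 hours. The groups did not overlap, and the level was 3.66-fold higher at 48 hours, a log2 difference of 1.87 against a limit of 0.43. Ribosomal protein L15 (CAOO1045) went from -1.13, -1.14 and -1.38 to 0.44, 0.47 and 0.64, which was 3.33-fold higher. The other 2 clones with the L15 annotation rose by 1.18 and 1.46 on the log2 scale. The 3 clones that were not called were L3 with a log2 difference of 0.40 (AOSC713), S5 with -0.16 (CAON1341) and S10 with 0.00 (CAON566). Another clone with the S10 annotation (AOSC475) was higher by 1.12, so clones of one name did not always move together.

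Other clones of translation and ribosome assembly were called in both directions, with 6 higher (60%), 3 lower (30%) and 1 not called of 10. Of the annotated clones 40.1% were higher and 32.7% lower. RLP24 (CAON1092), a factor of ribosome assembly, had ratios of -1.37, -0.74 and -0.84 at 12 hours and 0.33, 0.32 and 0.57 at 48 hours, 2.62-fold higher and with no overlap. Elongation factor 1-alpha, which brings aminoacyl-tRNA to the ribosome, was represented by 4 clones. Their log2 differences ran from -0.34 to 1.18, 2 were called higher and 1 lower. A class I aminoacyl-tRNA synthetase (AOSF1161), one of the enzymes that charge tRNAs, fell from 1.32, 1.87 and 2.01 to -0.09, -0.16 and 0.09, which was 3.45-fold lower. A nucleolar GTP-binding protein was higher by 1.04 in one clone (AOSF569) and lower in another, with -0.35 (AOSF546). The second of these calls was small and was lost when replicate 2 of the 12-hour group or replicate 3 of the 48-hour group was left out, with differences of -0.27 and -0.33. It was also lost after scaling of the arrays, at -0.20, with the image-analysis session as a block, with the spread of these 2 groups alone and with 99% intervals.

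All 3 histone clones were lower at 48 hours. Histone H3.3 (AOSF1219), a replacement variant of histone H3, had ratios of 1.82, 1.97 and 1.98 at 12 hours and -0.92, -0.91 and -0.95 at 48 hours. The 2 groups were far apart and each was tight. The level was 7.21-fold lower, a log2 difference of -2.85 against a limit of 0.25. Histone H1.0-A (AOSB632), a linker histone, went from 0.99, 1.31 and 1.33 to -0.94, -0.89 and -1.11 and was 4.56-fold lower. Histone H2A.V (AOSF622), a variant of H2A, went from 0.70, 0.58 and 0.66 to -1.08, -0.74 and -1.01 and was 3.01-fold lower.

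Clones of cell division and DNA replication were mostly lower, with 6 of 9 lower (66.7%), 1 higher (11.1%) and a median log2 difference of -0.89. Of the annotated clones 32.7% were lower and 40.1% higher. The small GTPase Ran (AOSF912), which drives nuclear transport and helps to build the spindle, fell from 0.76, 0.43 and 0.64 to -0.63, -0.71 and -0.67, or 2.43-fold. Mitochondrial DNA topoisomerase I (CAON1314), which relaxes supercoiled DNA, fell by 0.95 on the log2 scale. INCENP (AOSB594), a subunit of the chromosomal passenger complex of mitosis, and DNA polymerase epsilon subunit 3 (AOSB437) each fell by 0.89. UHRF1 (AOSB949), which couples DNA methylation to replication in mammals, fell by 0.90. The one clone that rose was recombination repair protein 1 (AOSB392), with ratios of -0.52, -0.49 and -0.58 at 12 hours and 0.27, 0.13 and 0.15 at 48 hours. Its difference of 0.72 was close to its limit of 0.59, and the call was lost without replicate 3 of the 12-hour group, at 0.69, or without replicate 1 of the 48-hour group, at 0.67. It was also lost after scaling of the arrays, at 0.60, with the image-analysis session as a block and with 99% intervals.

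Of 6 RNA processing clones 4 were lower (66.7%, against 32.7% of the annotated clones), none was higher and the median was -0.76. The serine/arginine repetitive matrix protein 1 (AOSB1012), a coactivator of splicing, fell from 0.44, 0.58 and 0.50 to -0.59, -0.67 and -0.64, which was 2.21-fold. The intron-binding protein aquarius (AOSB638), a helicase of the spliceosome, was 2.18-fold lower, but its 12-hour arrays were spread out at 0.55, -0.37 and -0.55. Its call was lost with 99% intervals, with the spread of these 2 groups alone and with the image-analysis session as a block, where the log2 difference was -0.70 in place of -1.12. The branch site protein p14 (AOSF1016) fell by 0.78.

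**Figure D2:**
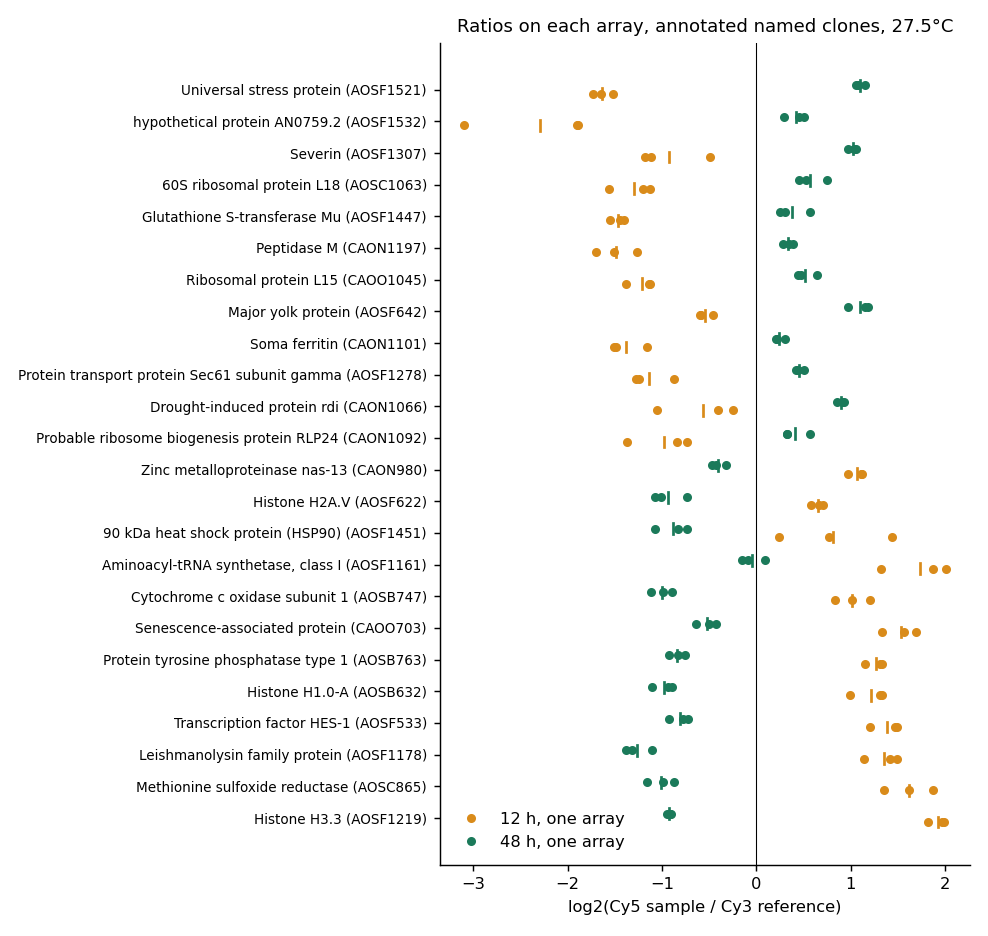
Log2 ratio to the pool on each array for the 12 annotated named clones with the largest rises and the 12 with the largest falls, with points for arrays and short bars for the mean of 3 arrays. Rows run from histone H3.3 at the bottom (7.21-fold lower) to the universal stress protein at the top (6.63-fold higher). In every row the 12-hour arrays (orange) and the 48-hour arrays (green) lie apart, which the rule for naming required of most of these clones.

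In the list of stress response genes 10 of 16 clones were lower (62.5%) and 4 were higher (25%), with a median of -0.76. Of the annotated clones 32.7% were lower and 40.1% higher. HSP90 (AOSF1451), a chaperone of signalling proteins, had ratios of 0.24, 0.77 and 1.43 at 12 hours and -0.84, -1.07 and -0.74 at 48 hours. The 12-hour arrays were widely spread but all lay above the 48-hour arrays, and the level was 3.24-fold lower. The chaperonin Cpn60 (AOSF528), which folds proteins in mitochondria, fell by 1.21 on the log2 scale, and clone CAOO2018, a heat shock protein of 97 kDa with 2 arrays at 12 hours, was not called at -0.11. A senescence-associated protein (CAOO703) fell 4.15-fold, from 1.33, 1.69 and 1.57 to -0.50, -0.64 and -0.43, whereas a second clone of this annotation (CAOO2479) was not called at -0.18. Sequestosome-1 (AOSF1075), an adaptor of selective autophagy, fell by 0.71, and the chromatin remodeller ATRX (AOSB947) fell by 0.91.

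The stress clones that were higher at 48 hours included the largest rise of any clone with a named protein. The universal stress protein (AOSF1521), of a family found in bacteria, plants and some animals, had ratios of -1.73, -1.65 and -1.52 at 12 hours and 1.08, 1.15 and 1.06 at 48 hours. All arrays were close together within each time, and the level was 6.63-fold higher. The drought-induced protein rdi (CAON1066) was 2.77-fold higher. The heat shock transcription factor 1 (CAON1605), which activates heat shock genes, had ratios of -0.28, -0.06 and -0.17 at 12 hours and 0.36, 0.33 and 0.23 at 48 hours. Its difference of 0.48 only just passed its limit of 0.40. The call was lost without replicate 1 of the 12-hour group, at 0.42, and without replicate 1 or 2 of the 48-hour group, at 0.45 and 0.46. It was also lost after centring of the arrays, at 0.44, with the image-analysis session as a block and with 99% intervals.

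Clones of the response to oxidative stress were mostly higher, with 8 of 12 higher (66.7%), 2 lower (16.7%) and a median of 0.74. Of the annotated clones 40.1% were higher and 32.7% lower. Glutathione S-transferase Mu (AOSF1447), which conjugates glutathione to toxic compounds, went from -1.40, -1.45 and -1.55 to 0.25, 0.30 and 0.57 and was 3.58-fold higher. Another clone annotated as a glutathione S-transferase (AOSF483), outside this list, was lower, with a log2 difference of -0.45 against a limit of 0.43. Both ferritins, which store iron, rose, soma ferritin (CAON1101) from -1.16, -1.51 and -1.49 to 0.30, 0.20 and 0.22 and the other ferritin clone (CAON969) by 1.60 on the log2 scale. Malate dehydrogenase (AOSF1222), an enzyme of central metabolism, rose by 1.42. Catalase (AOSF550), which breaks down hydrogen peroxide, rose by 1.23, and thioredoxin (AOSF1373), a reductant of protein disulfides, by 0.56. Those of the list that fell were a clone with a 2Fe-2S ferredoxin site (AOSC403), 2.36-fold lower, and the peroxisomal 3,2-trans-enoyl-CoA isomerase (AOSC790), 1.84-fold lower. The isomerase is an enzyme of fatty acid oxidation. Methionine sulfoxide reductase (AOSC865), which repairs oxidised methionine, stood in the list of apoptosis and autophagy and was among the largest falls. It went from 1.36, 1.62 and 1.87 to -0.87, -1.16 and -1.0, which was 6.16-fold lower.

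Of the 6 clones tested in the list of apoptosis and autophagy, 4 were higher, methionine sulfoxide reductase was lower and 1 was not called. Cathepsin B (AOSF1172), a lysosomal protease, rose 2.59-fold, from -0.96, -0.74 and -1.0 to 0.47, 0.51 and 0.45. ATG16 (CAOO2671), which helps to form autophagosomes, rose by 0.97 on the log2 scale and the viral IAP-associated factor homolog (CAON1120) by 0.66. Calreticulin (AOSC448), a calcium-binding chaperone of the endoplasmic reticulum, was 2.29-fold higher. It also stood in the list of the secretory pathway, where 4 of 10 clones were higher (40%) and 1 was lower (10%). Among the annotated clones these shares were 40.1% and 32.7%, so the share of rises was at that background. In this list the gamma subunit of Sec61 (AOSF1278) rose 3.01-fold, from -0.88, -1.28 and -1.25 to 0.44, 0.50 and 0.42. This subunit is part of the channel through which proteins enter the endoplasmic reticulum. The alpha and beta subunits were not called, with differences of -0.19 (CAOO526) and 0.39 (CAOO1095). Syntaxin 16 (AOSC1134), a SNARE of the Golgi, was 2.29-fold lower.

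Of 13 clones of mitochondrial respiration and ATP synthase, 7 were higher (53.8%) and 2 lower (15.4%), against 40.1% and 32.7% of the annotated clones. The median was 0.44. Cytochrome b (AOSF1328), a subunit of complex III, went from -0.75, -0.57 and -0.84 to 0.30, 0.26 and 0.30 and was 2.01-fold higher. A lipid-binding subunit of ATP synthase (AOSC391) went from -1.11, -1.13 and -1.25 to 0.16, 0.19 and 0.06 and was 2.46-fold higher. Cytochrome c oxidase subunit 1 (AOSB747), the catalytic subunit of complex IV, moved the other way. It went from 0.83, 1.02 and 1.20 to -1.12, -0.89 and -0.99, which was 4.05-fold lower. In animals both this subunit and cytochrome b are encoded in the mitochondrial genome, and the annotation does not say in which genome these cDNAs lie. Subunit 7 of the NADH-ubiquinone oxidoreductase (CAON943), of complex I, fell by 0.47, a call that was lost with the spread of these 2 groups alone.

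Metabolic enzymes had a median of 0.01, which turned to -0.03 after centring of the arrays, with 4 of 13 clones higher and 2 lower, shares below those of the annotated clones as a whole. S-adenosylmethionine synthetase (CAON999), which makes the methyl donor of the cell, rose by 0.95, and an aspartate/ornithine carbamoyltransferase (AOSC420) by 0.79. The call of the latter was lost with 99% intervals, with the spread of these 2 groups alone and with the image-analysis session as a block, at 0.55. A clone similar to the cobalamin biosynthesis protein CobN (AOSF613) fell by 1.11 and an RNA 3'-terminal phosphate cyclase (CAON781) by 0.54.

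Of 11 clones of transcriptional regulation, 3 were higher (27.3%), 1 was lower (9.1%) and 7 were not called. Both shares of calls were below those of the annotated clones. HES-1 (AOSF533), a repressor that acts downstream of Notch in animals, had ratios of 1.21, 1.47 and 1.49 at 12 hours and -0.72, -0.92 and -0.78 at 48 hours. It was 4.58-fold lower, with no overlap between the times. A C2H2 zinc finger clone (AOSC580) went from -0.81, -1.06 and -0.98 to 0.04, 0.19 and -0.02 and was 2.03-fold higher. Among 8 signalling clones 5 were lower (62.5%) and 2 higher (25%), against 32.7% and 40.1% of the annotated clones. A protein tyrosine phosphatase type 1 (AOSB763), which removes phosphate from tyrosine residues, fell 4.30-fold, from 1.15, 1.31 and 1.33 to -0.84, -0.93 and -0.75. A rhodopsin-like G protein-coupled receptor (AOSF1236) rose 2.09-fold, a log2 difference of 1.06 that was 0.59 with the image-analysis session as a block. The precursor of LWamide neuropeptides (CAON1226), which in hydrozoans trigger metamorphosis of the larva, rose by 0.47. A purple acid phosphatase (CAON1102) fell by 0.63, but its limit was 0.57 and its call was lost when any 1 array other than replicate 1 of the 12-hour group was left out, with differences of -0.66 to -0.44. It was also lost with the spread of these 2 groups alone and with 99% intervals, and the difference was -1.02 with the session as a block.

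Cytoskeleton and adhesion clones were lower in 8 (53.3%) and higher in 3 (20%) of 15 cases, with a median of -0.45. Of the annotated clones 32.7% were lower and 40.1% higher. Severin (AOSF1307), which cuts actin filaments, rose 3.87-fold, from -0.49, -1.12 and -1.18 to 0.98, 1.03 and 1.06. Myosin light chain (AOSF780), a subunit of the actin motor, rose 2.11-fold, a log2 difference of 1.08 that was 0.63 with the image-analysis session as a block. Both clones of myosin-VIIa, an unconventional myosin, fell, by 1.11 (CAON1295) and 0.82 (AOSF969) on the log2 scale, the first of them a call that was lost with the spread of these 2 groups alone. All 3 dynein clones, subunits of a microtubule motor, fell as well. The Tctex-type 1 light chain (AOSF634) fell by 1.05, the roadblock-type 2 light chain (AOSF651) by 0.90 and the cytoplasmic heavy chain (CAON708) by 0.56.

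In proteolysis and the ubiquitin system 7 of 16 clones were lower (43.8%) and 4 higher (25%), against 32.7% and 40.1% of the annotated clones. The leishmanolysin family protein (AOSF1178), a metalloprotease, went from 1.14, 1.42 and 1.49 to -1.39, -1.31 and -1.10 and was 6.14-fold lower. The zinc metalloproteinase nas-13 (CAON980), of the astacin family, was 2.78-fold lower. A peptidase M clone (CAON1197) went from -1.26, -1.50 and -1.70 to 0.38, 0.34 and 0.28 and was 3.54-fold higher. FUBI (CAON1748), a ubiquitin-like protein that in mammals is made as a fusion with a ribosomal protein, was 2.01-fold higher, and ubiquitin itself (AOSF1347) rose by 0.76.

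The small cysteine-rich proteins called SCRiPs are known from corals. SCRiP5 (AOSF1140) fell 2.51-fold, from 1.20, 1.71 and 1.65 to 0.02, 0.28 and 0.28. The other clones were not called or not tested. SCRiP1 (AOSF1109) had ratios of -0.10, -0.13 and -0.09 at 12 hours and 0.34, -0.06 and 0.06 at 48 hours. SCRiP6 (AOSF1199) had a difference of -0.38 against a limit of 0.42, and SCRiP8 (AOSF810) one of -0.04. SCRiP2 (AOSF1192) had a value on 1 of the 12-hour arrays, 0.44, beside 0.13, 0.15 and 0.23 at 48 hours.

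Major yolk protein (AOSF642), which in sea urchins is an iron-binding nutrient protein of the egg, was higher at 48 hours. Its ratios were -0.60, -0.46 and -0.58 at 12 hours and 0.97, 1.15 and 1.18 at 48 hours, 3.14-fold higher. A clone similar to tachylectin-2 (AOSF387), a lectin of horseshoe crab immunity, was not called at 0.45. Of 8 clones of retroelements, 2 were higher and 2 lower, or 25% each, against 40.1% and 32.7% of the annotated clones. A polyprotein clone (AOSF1282) rose by 0.61, a difference that was 0.40 without replicate 1 of the 12-hour group and whose call was lost with the image-analysis session as a block, at 0.37, and with the spread of these 2 groups alone. In addition, 2 reverse transcriptase clones (AOSF1473 and AOSF584) each fell by 0.61. The call of AOSF1473 was lost after scaling of the arrays, at -0.40, with the spread of these 2 groups alone and with 99% intervals. It was also lost without replicate 2 or replicate 3 of the 12-hour group, at -0.55 and -0.48. The call of AOSF584 was lost with the session as a block, at -0.44, with 99% intervals, and without replicate 1 of the 12-hour group, at -0.50. Of 4 clones with the annotation chloramphenicol acetyltransferase 2 were lower, CAON1217 by 0.79 and AOSC1103 by 0.42, and none was higher. The second of these calls was lost without replicate 2 of the 12-hour group, at -0.41, and without replicate 1 or 2 of the 48-hour group, at -0.41 and -0.40. It was also lost with the image-analysis session as a block and with 99% intervals.

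**Figure D3:**
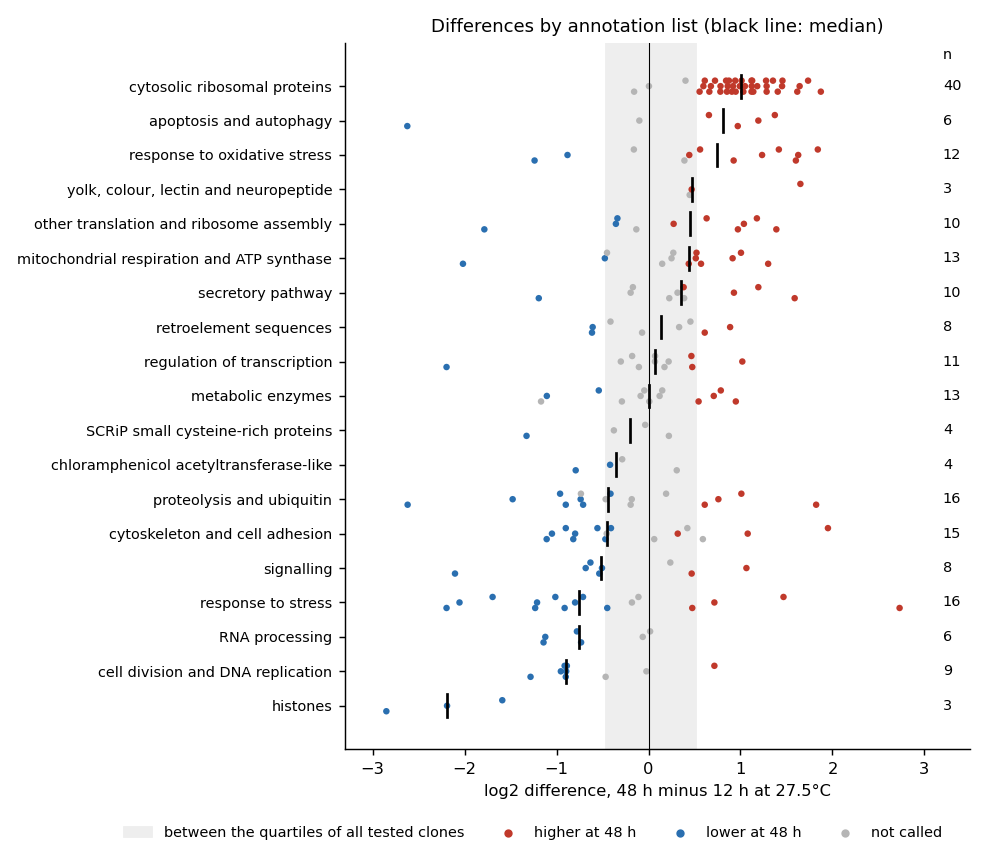
Log2 difference between 48 and 12 hours for each tested clone of 19 annotation lists, with the number of clones on the right, the list's median as a black line and the range between the quartiles of all tested clones shaded. Ribosomal protein clones form the list with the highest median (1.00) and histones the list with the lowest (-2.19).

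Some of the largest changes belonged to clones without annotation. AOSF1134 was lowest by far at 12 hours, with ratios of -5.16, -5.23 and -5.75, and stood above the pool at 48 hours, with 1.17, 1.25 and 1.36. That is a log2 difference of 6.64, or 5.65 after scaling of the arrays, and no fold is given for it. The intensity files do not name their spots, but spots with a ratio below -4 on the 12-hour arrays had Cy5 signals of 0.41 to 4.16 times the local background. Which of these spots belong to the clone, and so how far its 12-hour signal stood above background, is not known. CAON604 rose 9.37-fold, from -2.42, -2.87 and -2.32 to 0.57, 0.80 and 0.70. AOSF1267 rose 6.97-fold, from -0.92, -1.10 and -1.35 to 1.53, 1.73 and 1.76. AOSF1169 rose 6.0-fold, but its 12-hour arrays were at -0.50, -1.67 and -1.91. Its call was lost without replicate 2 or replicate 3 of that group, at log2 differences of 2.43 and 2.31, and with 99% intervals. AOSF1532, whose best database match is a hypothetical protein of the fungus Aspergillus nidulans, rose 6.55-fold. AOSF868, AOSF1042, AOSF1158 and AOSF1235 rose between 4.40-fold and 5.39-fold.

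Among the falls, AOSF1165 had the largest of all, from 1.58, 1.94 and 1.89 to -1.10, -1.31 and -1.20, which was 8.02-fold lower. AOSC845 fell 6.59-fold, from 1.44, 1.86 and 1.86 to -1.04, -1.06 and -0.91. AOSF516, AOSF737, CAON395 and AOSF684 fell between 4.92-fold and 5.75-fold. On the 12-hour arrays of AOSF684 the ratio was 0.63, 2.27 and 2.08, so that replicate 1 lay nearer to the 48-hour values of -0.49, -0.78 and -0.65 than the others did.

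Clone identifiers begin with letters whose meaning is not given in the sources used here, and the shares of calls differed between them. Of 75 clones beginning with AOSB, 34 (45.3%) were lower and 7 (9.33%) higher, with a median of -0.51. Clones beginning with AOSF had 147 higher and 99 lower of 502, and a median of 0.13. Those beginning with AOSC had 39 higher and 32 lower of 135, CAON had 58 and 50 of 297, and CAOO had 20 and 13 of 91. Histone H1.0-A, cytochrome c oxidase subunit 1, the tyrosine phosphatase and most clones of cell division carry the AOSB letters, so their falls and that of the AOSB clones as a group are not separate observations.

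The change between 12 and 48 hours was next compared with the change at the other temperatures. Across clones it correlated at 0.90 with the change at 29°C (1099 clones) and at 0.72 with the change at 31.5°C (1101 clones), where clones are not independent and share their array positions and cDNA pool. By the same interval rule 46.9% of 1215 clones were called at 29°C and 34.0% of 1217 at 31.5°C, sets larger than the 1101 clones of 27.5°C. Among the clones also tested at 27.5°C, 288 were higher and 254 lower at 29°C, and 227 and 167 at 31.5°C. Of the 271 clones higher at 27.5°C, 221 were also higher at 29°C (81.5% of those at 27.5°C and 76.7% of those at 29°C), and 155 were also higher at 31.5°C (57.2% and 68.3%). Of the 229 lower clones 175 were also lower at 29°C (76.4% and 68.9%), and 120 at 31.5°C (52.4% and 71.9%). At all 3 temperatures 141 clones were higher and 107 lower. Histone H3.3 was among the latter, with log2 differences of -2.85, -2.98 and -2.95 from the coolest to the warmest water.

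The difference of the changes was called where the 95% intervals of both changes did not overlap. This was so for 89 of 1099 clones (8.1%) between 29°C and 27.5°C, with the change at 29°C above in 51 clones and below in 38. After centring of the arrays the split was 71 above and 26 below, and without replicate 1 of the 12-hour group at 27.5°C 139 clones were apart. It was so for 235 of 1101 clones (21.3%) between 31.5°C and 27.5°C, with the change at 31.5°C above in 101 and below in 134, or above in 143 and below in 126 when the arrays were scaled to one spread. In 161 of these 235 clones the change was larger in size at 27.5°C and in 74 at 31.5°C. Both comparisons use the same 27.5°C arrays. Annotated clones had been picked for differences between temperatures on these arrays, so what follows on them is a description.

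**Figure D4:**
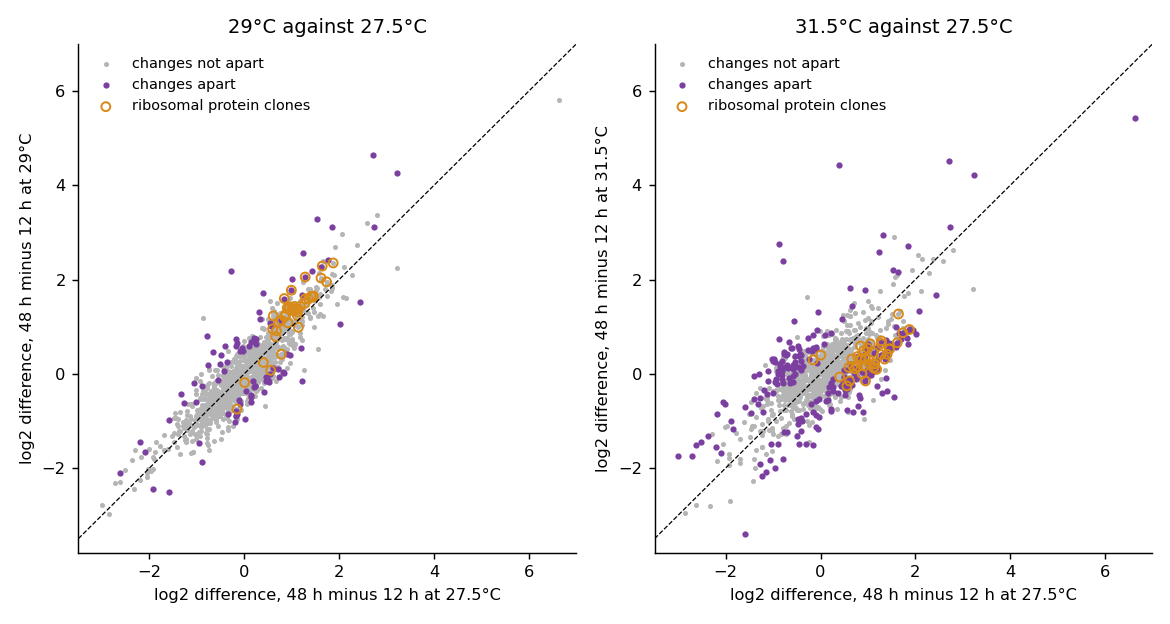
Log2 difference between 48 and 12 hours at 27.5°C (horizontal) against the difference at 29°C (left) and 31.5°C (right), 1 point per clone, with the dashed line of equal differences. Clones whose intervals were apart are purple (89 on the left, 235 on the right), and ribosomal protein clones, circled, lie near or above the line at 29°C and mostly below it at 31.5°C.

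Ribosomal protein clones rose at 27.5°C and 29°C, with medians of 1.00 and 1.37, and less at 31.5°C, with a median of 0.31. At 29°C 36 of 40 clones were called higher and 1 lower, and at 31.5°C 13 were higher and none lower. At 29°C the change was above that at 27.5°C in 4 of 40 clones and below it in none, against 24 above and 14 below among the 257 annotated clones, so the share above was near that background. At 31.5°C it was below that at 27.5°C in 23 of 40 clones and above it in none, against 76 below and 51 above among the 257 annotated clones. The median ratio of these clones on the arrays of 31.5°C was -0.61, -0.64 and -0.65 at 12 hours, close to that at 27.5°C, and -0.40, -0.27 and -0.23 at 48 hours, where all 27.5°C arrays lay above 0. On the arrays of 29°C it was -1.21, -1.16 and -1.18 at 12 hours and -0.09, 0.29 and 0.24 at 48 hours. These medians lay below those of all 27.5°C arrays at both times. Clones of respiration and ATP synthase had median differences of 0.44, 0.30 and -0.26 from the coolest to the warmest water. In the warmest, 8 of 13 changes were below those of the coolest and 1 was above. The ATP synthase lipid-binding subunit AOSC391, higher by 1.30 at 27.5°C, was lower at 31.5°C with -0.41. Clones of cell division fell at 27.5°C and 29°C, with medians of -0.89 and -1.09, and had a median of -0.01 at 31.5°C. There 5 of 9 changes were above those at 27.5°C and 1 was below. The counts of respiration and of cell division stand beside the same 76 below and 51 above among the 257 annotated clones. Over all 1101 clones 134 changes were below and 101 above.

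Single genes departed in both directions. The fall of histone H2A.V was smaller at 27.5°C, -1.59, than at 29°C, -2.51, and at 31.5°C, -3.40. Its means at 12 hours were 0.65, 0.40 and 0.65 from the coolest to the warmest water, where the 29°C arrays lay below all others, and its means at 48 hours were -0.94, -2.11 and -2.75. The fall of histone H1.0-A was larger at 27.5°C, -2.19, than at 31.5°C, -0.86. SCRiP5 fell by 1.33 at 27.5°C and had differences of -0.44 and -0.64 in the warmer water. At 12 hours its ratio stood at 1.52 ± 0.28 in embryos kept at 27.5°C (mean ± SD, n = 3 arrays), but only at 0.24 ± 0.11 in those kept at 29°C and 0.13 ± 0.04 in those kept at 31.5°C. HES-1 fell 4.58-fold at 27.5°C, a log2 difference of -2.2, with -1.45 and -1.56 in the warmer water, and its 12-hour mean was highest at 27.5°C, 1.39 against 0.39 and 0.70.

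Calreticulin rose by 1.19 at 27.5°C and by 0.54 at each of the other temperatures. The heat shock transcription factor 1 had a called rise at 27.5°C alone, with -0.13 at 29°C and -0.17 at 31.5°C. That call only just passed its limit and was lost under several alternatives. Other rises were smaller at 27.5°C. Soma ferritin rose by 1.63, against 2.26 at 29°C and 2.17 at 31.5°C. Catalase and peroxidasin, which were chosen after their values were seen, differed more. Catalase rose by 1.23 at 27.5°C, against 2.57 at 29°C and 2.58 at 31.5°C. Peroxidasin (AOSF997), a peroxidase of the extracellular matrix, was not called at 27.5°C, at 0.39 against a limit of 0.69, and its difference was 1.72 at 29°C and 4.44 at 31.5°C. The universal stress protein, at 2.73, stood below 3.12 at 29°C and 3.11 at 31.5°C by a margin that was small beside its size.

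**Figure D5:**
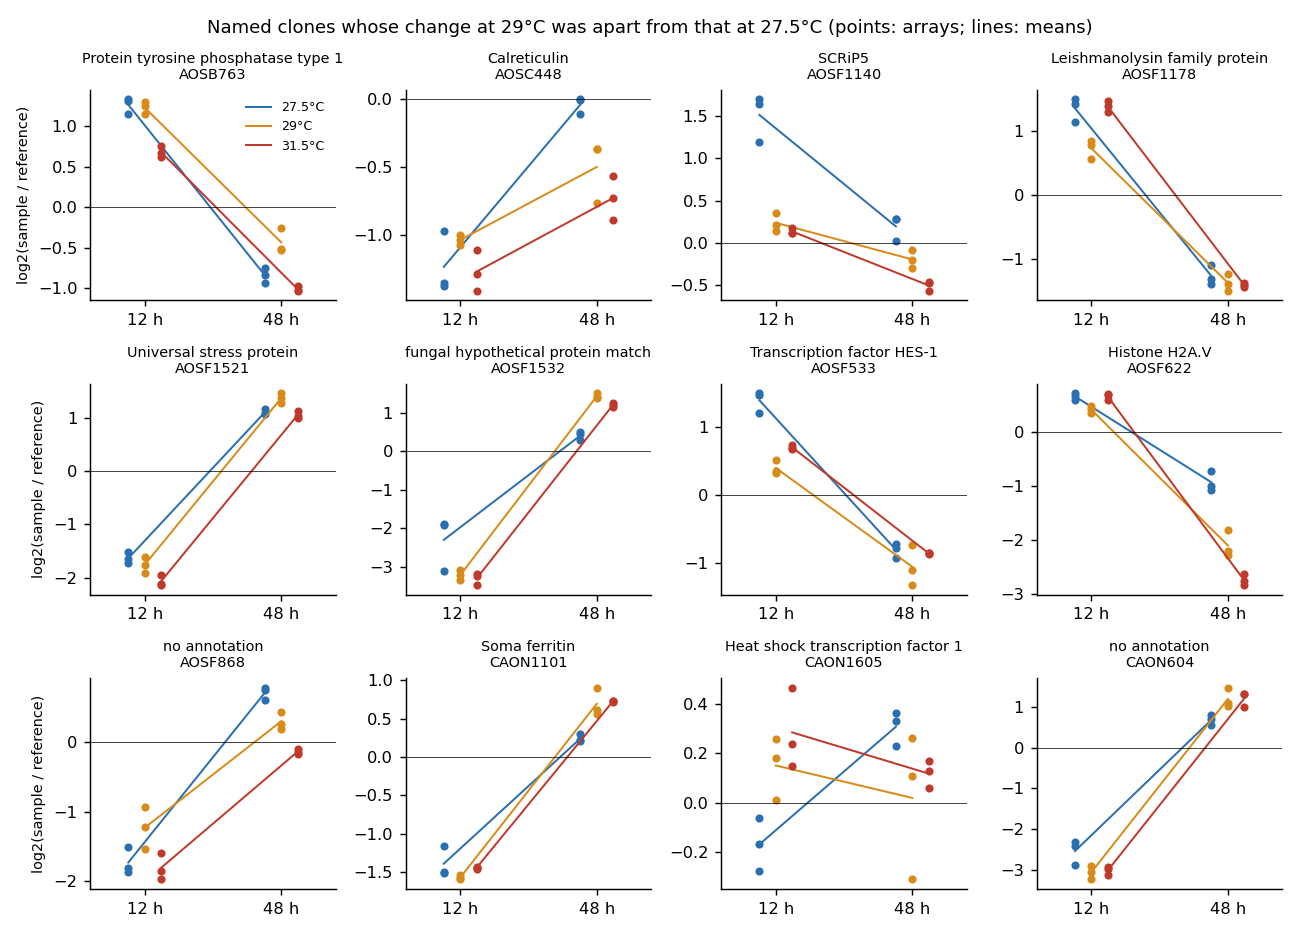
Log2 ratio to the pool at 12 and 48 hours for the 12 named clones whose change at 29°C was apart from that at 27.5°C, with points for arrays, lines between the means of 3 arrays and a colour per temperature (vertical ranges differ between panels). In the panels of SCRiP5 and HES-1 the 27.5°C arrays stand highest at 12 hours, and in that of histone H2A.V they stand highest at 48 hours.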

How the data were processed

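RNA of pooled embryos was hybridised by the authors to 2-colour arrays of cDNA clones spotted in 16 print-tip blocks, with samples in Cy5 and pooled RNA in Cy3. Per the file headers and methods, the deposited background-subtracted intensity of each spot was read in TIGR Spotfinder 2.2.4. The authors applied LOWESS within print-tip blocks (TIGR MIDAS 2.19) to obtain the deposited log2 ratios per clone. How duplicate spots were combined was not given in the sources used here. GEO's labels and the methods describe the pool differently, and some source labels give another temperature than the titles, from which groups were taken here.

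Each clone was fitted with 1 mean per condition over the 18 arrays and one SD (Python 3.11.15, numpy 2.4.6, pandas 2.3.3, scipy 1.17.1). Clones needed 2 of 3 arrays in both groups. A clone was called where 95% confidence intervals did not overlap, and a difference between temperatures where the intervals of both changes did not overlap. limma 3.58.1 in R 4.3.3, with Benjamini-Hochberg adjustment at 0.05, served as an alternative only. Both fits were tested on simulated data. Alternatives were centred or scaled arrays, stricter filters, the spread of the compared groups alone, blocks for replicate number and image-analysis session, 99% intervals, spot intensities and single arrays left out.

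Named were, among called clones with all 6 arrays and no overlap between the times, the 10 largest rises and 10 largest falls, and in each list the 2 largest of each, and in addition every SCRiP, histone and HSP90 clone, the 97 kDa heat shock protein and heat shock transcription factor 1. This gave 76 clones, 14 of them without annotation. Further members of lists are named to describe a list. The members, the 19 lists and the tests were chosen with earlier results of these data known. No sequences of the clones were at hand, so none is shown.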

Additional observations from a re-analysis of the deposited data

Results flagged for a closer look

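The change between 12 and 48 hours was apart from that at 27.5°C for 12 named clones at 29°C and for 45 at 31.5°C. Each value below is the change at the warmer temperature minus the change at 27.5°C, on the log2 scale, from 3 technical arrays per group and with both comparisons sharing the 27.5°C arrays. Annotated clones had been picked by the study for differences between temperatures on these arrays.

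At 29°C the change was above that at 27.5°C by 1.94 for AOSF1532, 1.03 for CAON604, 0.89 for SCRiP5 and 0.74 for HES-1. It was above by 0.63 for soma ferritin, 0.52 for the leishmanolysin family protein, 0.44 for the tyrosine phosphatase type 1 and 0.39 for the universal stress protein. The differences below 0 were -0.92 for histone H2A.V, -0.91 for AOSF868, -0.66 for calreticulin and -0.61 for the heat shock transcription factor 1.

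At 31.5°C the clones that fell at 27.5°C and whose change was above that value included the senescence-associated protein CAOO703 (1.46), cytochrome c oxidase subunit 1 (1.38), histone H1.0-A (1.33) and AOSF1165 (1.26). With them were myosin-VIIa CAON1295 (1.17), reverse transcriptase AOSF1473 (1.16), methionine sulfoxide reductase (1.11), AOSF516 (1.07), AOSF737 (1.04) and AOSC845 (0.98). Smaller gaps of this kind were found for the CobN-like clone (0.94), syntaxin 16 (0.85), mitochondrial DNA topoisomerase I (0.78), SCRiP5 (0.68), the metalloproteinase nas-13 (0.65), HES-1 (0.64) and the tyrosine phosphatase (0.41). The change was also above that at 27.5°C for clones that rose or were not called there, AOSF1532 (1.81), CAON604 (1.00), SCRiP1 (0.65), soma ferritin (0.54) and the universal stress protein (0.38).

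Changes at 31.5°C below those at 27.5°C were largest for histone H2A.V (-1.81), the ATP synthase lipid-binding subunit AOSC391 (-1.71), AOSF1134 (-1.21) and glutathione S-transferase Mu (-1.20). Peptidase M (-1.07), FUBI (-1.06), myosin light chain (-1.03), severin (-1.03) and elongation factor 1-alpha AOSF1493 (-0.98) followed. The ribosomal proteins L18 (-0.93) and L15 CAOO1045 (-0.87) and the ribosome assembly factor RLP24 CAON1092 (-0.80) were also below, as were the serine/arginine matrix protein 1 (-0.93), major yolk protein (-0.78) and AOSF868 (-0.77). The smallest were calreticulin (-0.65), the heat shock transcription factor 1 (-0.64), Ran (-0.64), the Sec61 gamma subunit (-0.59), NADH-ubiquinone oxidoreductase 7 (-0.58), S-adenosylmethionine synthetase (-0.53), SCRiP8 (-0.49) and the Tctex-type 1 dynein light chain (-0.44).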

How the results depend on the processing

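Of 71 named clones called, 58 were called under every alternative that gave a value and 63 whichever 1 array of the 2 groups was left out. No named clone turned its direction among called values. Most named clones were picked for large differences without overlap, so these counts do not describe the stability of all called clones. The count of 500 called clones ran from 431 to 513 with single arrays left out. It was 395 with the image-analysis session as a block, 417 with the spread of the compared groups alone, 357 with 99% intervals and 610 with limma's moderated test on the technical arrays. Among the unnamed spots, a larger set of 1772 with print-tip loess, 827 were called. For the change at 29°C against 27.5°C the count of 89 ran from 62 to 139 with single arrays left out and was 33 with limma's moderated test. For 31.5°C the count of 235 ran from 182 to 260. The causes were not tested.

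The replicate numbers did not pair the arrays, as deviations of same-numbered arrays correlated at 0.09, -0.15 and 0.13, and a replicate block gave 498, 85 and 235 calls for the 3 counts. Of 38 list medians after centring or scaling of the arrays, 36 kept their sign. The exceptions were metabolic enzymes, 0.01 against -0.03 after centring, and transcriptional regulation, 0.07 against -0.07 after scaling. The SD per clone was pooled over conditions although the 12-hour arrays at 27.5°C were noisier. With 1 RNA isolation per time, differences between batches of embryos and between times cannot be told apart. How far dim spots on the 12-hour arrays limit the lowest ratios was not tested.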

Other observations

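The 117 clones that were not tested had a mean ratio at 48 hours above 0 in 62.4% of cases, against 55.0% of the tested clones, and their median 48-hour ratio was 0.05 against 0.03. On the 12-hour arrays at 27.5°C, 729, 247 and 87 spots had a Cy3 signal and no Cy5 signal, against 187, 132 and 99 on the 48-hour arrays, out of 4320 spots per array. Spots with a Cy5 signal and no Cy3 signal numbered 6, 27 and 294 on the 12-hour arrays and 9, 49 and 50 on the 48-hour arrays, so the excess of replicate 3 at 12 hours ran the other way. Whether clones without a 12-hour value had low levels there was not tested.

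Of the 500 clones called at 27.5°C, 70 were called at neither of the other temperatures. Only 6 of these 70 had a change that was apart from those at both other temperatures. The 70 include the transcriptional regulator with a PHD and bromodomain (AOSB586), higher by 0.47 on the log2 scale, and sorting nexin 7 (AOSB874), higher by 0.38. Also among them is the aspartate/ornithine carbamoyltransferase (AOSC420), higher by 0.79 but not called with the spread of the 2 groups alone. These 3 clones were chosen after their values were seen, and a call at one temperature alone is not a test of the difference between temperatures. The change of AOSB586 was apart from that at 29°C, where it was -0.16, and the other 2 changes were apart from neither.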
